A study of Homo sapiens with 12 samples.

Results

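The 49 genes described here encode the proteins that license and fire replication origins, copy DNA, supply its nucleotides, rebuild chromatin on it and drive the passage from G1 into S phase. They were a fixed list of gene symbols, matched exactly to the symbols of the array's probe table. Each gene was represented by its probe set with the highest mean over the 12 arrays. All 49 had a probe set and all 49 passed the filter on dim probe sets, out of 14649 genes that passed it. The list divides by role into 19 licensing and helicase genes, 18 polymerase, clamp and fork genes, 4 nucleotide genes, 4 chromatin genes and 4 G1/S regulators. The rule itself uses no measured value apart from the mean level that picks the probe set, but the list was chosen with earlier results of these data known.

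The samples were cells of A549, a human lung adenocarcinoma line. Anti-EpCAM cultures had received a monoclonal antibody at 100 µg/ml for 48 h, which the labels call anti-mouse EpCAM without saying whether mouse is its host or its target, and the other cultures were untreated. All cells were then stained with the DNA dye Hoechst at 5 µg/ml for 90 min, with propidium iodide at 2 µg/ml to mark dead cells, and separated by flow sorting into Hoechst-excluding cells, called the side population (SP), and all other cells (non-SP). The 4 groups were anti-EpCAM SP, anti-EpCAM non-SP, untreated SP and untreated non-SP, with 3 biological replicates each on 12 Affymetrix arrays. Precision is limited throughout by how few arrays there are. The log2 expression values are used as deposited, so a difference of 1 is a doubling, and each is a bulk value in which fewer cells of a type and less RNA per cell cannot be told apart.

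The arrays of SP and non-SP cells with the same treatment and replicate number were taken as 6 pairs. Nothing in the labels states that both arrays of a pair stem from 1 sort. Once group means were subtracted, paired arrays correlated over genes (r of 0.62 to 0.89), and their ordered values were 0.0093 to 0.0213 apart on average, where other combinations of arrays were 0.0461 to 0.524 apart. A shared sort and shared processing cannot be told apart from these values. Array medians lay between 5.59 and 6.24. The 8 epithelial markers averaged 10.46 to 11.28 per array, against 5.20 to 6.56 for 8 fibroblast markers, 5.24 to 5.98 for the 5 leukocyte markers with a probe set and 4.54 to 5.23 for 4 endothelial markers. The log2 3'/5' ratio of the actin control probe sets is a measure of RNA integrity on 3'-labelled arrays. Its SP minus non-SP difference was 1.86, 0.27 and -2.09 in anti-EpCAM pairs 1 to 3 and -0.25, -0.26 and -0.36 in untreated pairs 1 to 3. On single arrays the ratio was 2.61 (SP) and 2.86 (non-SP) in untreated pair 1, 2.68 and 2.95 in pair 2, and 1.03 and 1.39 in pair 3. In anti-EpCAM pairs 1 to 3 it was 3.14 and 1.28, 1.20 and 0.94, and 1.03 and 3.13. The ratio thus also differed between replicates and between the cultures set against each other in the antibody contrast.

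Replication starts at origins bound by the origin recognition complex (ORC), onto which CDC6 and CDT1 load the ring of MCM2 to MCM7 during G1. CDC45 and the GINS complex turn that ring into an active helicase at the start of S phase, and polymerases alpha, delta and epsilon then copy the strands with the help of the PCNA clamp and its loader. Many of these genes are transcribed as cells pass from G1 into S phase, under the control of E2F transcription factors, so their RNA is widely used to read the G1/S state of dividing cells. Side populations are studied in tumour lines because the efflux pumps that exclude Hoechst also export drugs.

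The first comparison set SP cells against non-SP cells over the 6 pairs. The replication genes were mostly a little higher in SP cells and no single gene passed the threshold. Of the 49, 45 had an estimate above 0, against 52.4% of all genes tested, and their median SP minus non-SP difference was 0.11, against 0.0056 over all genes. Estimates ran from -0.23 for the GINS complex subunit GINS4 to 0.33 for the loading factor CDC6. In limma with Benjamini-Hochberg adjustment, 0 of the 49 had an adjusted p under 0.05, where 362 of all genes (2.47%) did, and the smallest adjusted p of the 49 was 0.0963. At an unadjusted p under 0.05 there were 18 of the 49, all higher in SP cells, against 8.64% of all genes with that direction. With a trended variance prior 0 of all genes passed, so 0 members did. In that fit 18 members had an unadjusted p under 0.05, against 16% of all genes in either direction. Quantile normalization of all 12 arrays left 43 members above 0, against 52.3% of all genes.

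These counts leaned on single pairs. Without anti-EpCAM pair 1, CDC6 (0.44 ± 0.07, adjusted p = 0.0225 in limma) and the helicase activator MCM10 (0.39 ± 0.08, adjusted p = 0.0350) passed, where 2.94% of all genes did, and 25 members had an unadjusted p under 0.05. That number was 11 when anti-EpCAM pair 2 was left out and 8 when untreated pair 3 was. The share of all genes with an unadjusted p under 0.05 in either direction moved as well, to 21.0%, 11.7% and 10.5% in the same 3 fits, against 16.2% with all 6 pairs. The number of all genes with an adjusted p under 0.05, 362 with all 6 pairs, moved too. It was 72 and 218 without anti-EpCAM pairs 2 or 3, and 145, 184 and 90 without untreated pairs 1, 2 or 3. Without anti-EpCAM pairs 1 and 3, the pairs with the large differences in actin ratio, 40 of 49 members were above 0 with a median of 0.12, against 54.3% of all genes, and 18 had an unadjusted p under 0.05, against 21.5% of all genes. When the 12 arrays were treated as independent, 4 members had an unadjusted p under 0.05, against 1.50% of all genes, and 0 genes passed.

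The size of the difference varied from pair to pair. The mean over the 49 genes was -0.0039, 0.13 and 0.19 in anti-EpCAM pairs 1 to 3 and 0.062, 0.056 and 0.21 in untreated pairs 1 to 3, with a mean of 0.11 ± 0.084 (SD, n = 6 pairs). It was near 0 in anti-EpCAM pair 1 and highest in the third pair of each treatment. The actin ratio differences were 1.86, 0.27 and -2.09 in anti-EpCAM pairs 1 to 3 and -0.36 in untreated pair 3. Whether the mean followed this ratio was not tested. The numbers of genes higher in SP cells were 29, 37 and 42 in the anti-EpCAM pairs and 38, 34 and 44 in the untreated pairs. Over all genes the shares were 52.4%, 52.2% and 39.5% in the anti-EpCAM pairs and 66.0%, 46.7% and 50.5% in the untreated pairs. Untreated pair 1 was thus a pair in which most of the array lay above 0. There were 11 members (22.4%) higher in SP cells in all 6 pairs, against 6.03% of all genes: the origin binding subunit ORC1, the helicase subunits MCM2, MCM3, MCM5 and MCM6, GINS1 and GINS3, the polymerase subunits POLE2 and POLA1, the histone chaperone subunit CHAF1B and the transcription factor E2F2. None of the 49 was lower in all 6, against 4.68% of all genes.

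**Figure D1:**
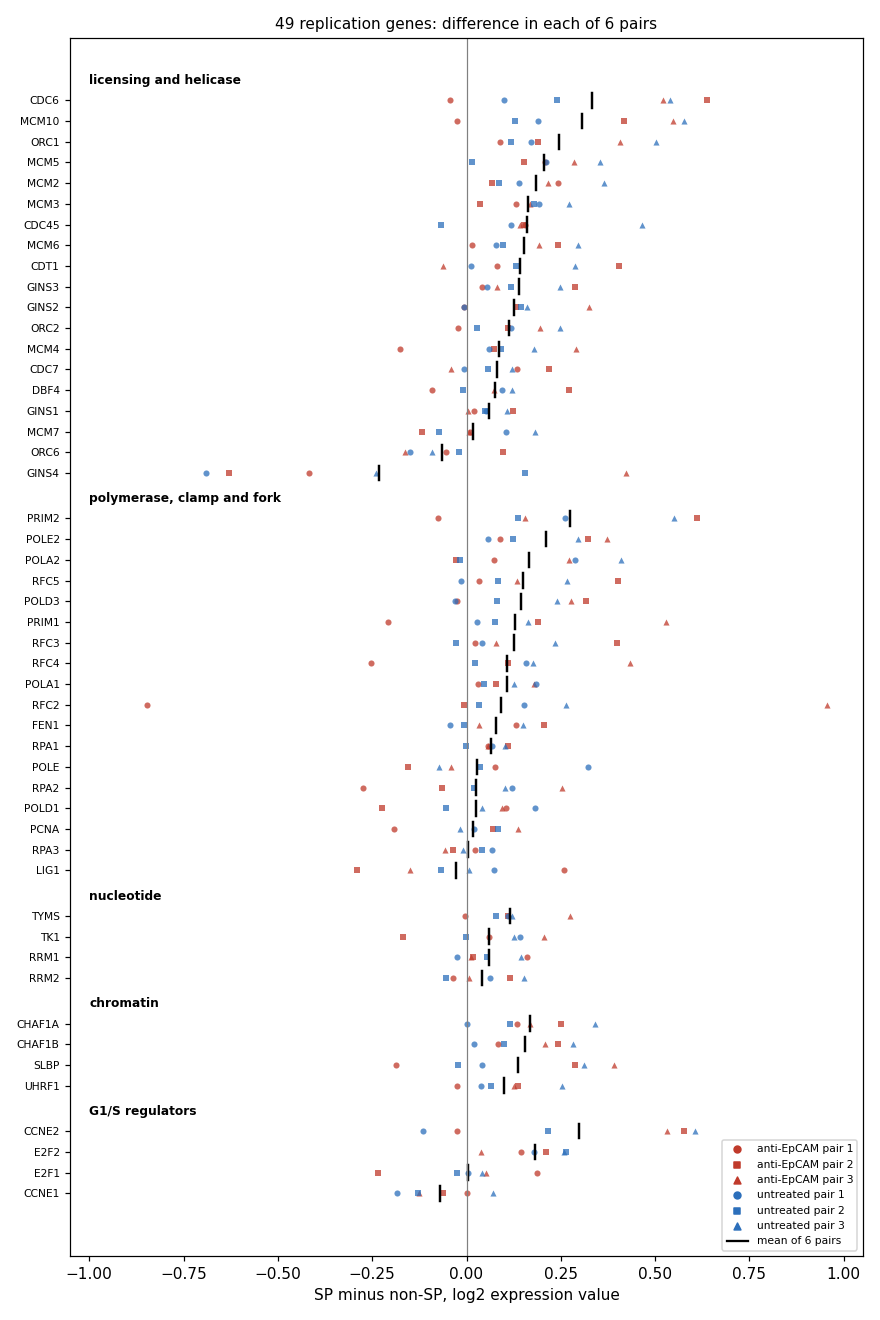
SP minus non-SP difference (log2, horizontal axis) of each of the 49 genes, grouped by role, in each of the 6 pairs; the black bar is the mean of the 6 pairs. Most bars lie to the right of 0, from -0.23 for GINS4 to 0.33 for CDC6, and RFC2 spreads from -0.85 in anti-EpCAM pair 1 to 0.96 in anti-EpCAM pair 3.

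The licensing and helicase genes held the largest single estimates. Of these 19, 17 had an estimate above 0, with a median of 0.14, 9 had an unadjusted p under 0.05 and 7 were higher in SP cells in all 6 pairs. CDC6, the ATPase that brings the MCM ring to ORC, had 10.33, 10.45 and 10.32 in anti-EpCAM SP cells and 10.37, 9.81 and 9.80 in anti-EpCAM non-SP cells. In untreated cells it had 10.26, 10.37 and 10.39 in SP and 10.16, 10.14 and 9.85 in non-SP. The SP arrays lay close together, and the spread was in the non-SP arrays, where that of anti-EpCAM replicate 1 was as high as the SP arrays. The estimate was 0.33 ± 0.09 (SE, n = 6 pairs), or 1.26-fold, with adjusted p = 0.0963 in limma, and 5 of 6 pairs were higher. Its other probe set had a mean difference of 0.26, also with 5 of 6 pairs above 0.

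ORC1, the largest subunit of ORC, had 8.95, 8.91 and 8.77 in anti-EpCAM SP cells and 8.86, 8.72 and 8.36 in anti-EpCAM non-SP cells. In untreated cells it had 8.78, 8.85 and 8.85 in SP and 8.61, 8.74 and 8.34 in non-SP. All 6 pairs were higher in SP, and the non-SP arrays of the third replicate were the low ones in both treatments. The estimate was 0.25 ± 0.07 (adjusted p = 0.0981 in limma).

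MCM10 had differences of -0.026, 0.42 and 0.55 in anti-EpCAM pairs 1 to 3 and 0.19, 0.13 and 0.58 in untreated pairs 1 to 3, an estimate of 0.31 ± 0.08 (adjusted p = 0.0996 in limma). Like CDC6 it was near 0 in anti-EpCAM pair 1 and above 0 in the other 5 pairs. Its 2 other probe sets had mean differences of 0.17 and 0.30. The ORC subunit ORC2 had 0.11 ± 0.06, and CDT1, the partner of CDC6 in loading, had 0.14 ± 0.07 with 5 of 6 pairs above 0.

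All 6 subunits of the helicase ring, MCM2 to MCM7, had estimates above 0 on the deposited values, MCM7 turning to -0.0022 after quantile normalization, with a median of 0.16, and 4 of them were higher in SP cells in all 6 pairs. MCM5 had 10.98, 10.92 and 11.00 in anti-EpCAM SP cells and 10.77, 10.76 and 10.72 in anti-EpCAM non-SP cells, and 10.98, 10.88 and 11.01 in untreated SP cells against 10.77, 10.86 and 10.65 in untreated non-SP cells. Every SP array lay above every non-SP array, with the narrowest gap in untreated pair 2 at 0.015. The estimate was 0.20 ± 0.06 (adjusted p = 0.108 in limma).

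MCM2 differed by 0.24, 0.067 and 0.22 in the anti-EpCAM pairs and by 0.14, 0.085 and 0.36 in the untreated pairs (0.19 ± 0.06, adjusted p = 0.139 in limma). MCM3 differed by 0.13, 0.036 and 0.17 in the anti-EpCAM pairs and by 0.19, 0.18 and 0.27 in the untreated pairs (0.16 ± 0.05, adjusted p = 0.137). MCM6 had 0.15 ± 0.06, with 0.013 in anti-EpCAM pair 1 as its smallest difference. For these subunits the direction held in every pair, and the smallest differences fell in anti-EpCAM pair 2 for MCM2 and MCM3. MCM4 had 0.09 ± 0.06, and its 5 probe sets ranged from -0.0051 to 0.23. MCM7 had 0.02 ± 0.06, with 4 of 6 pairs above 0, while its other probe set had a mean difference of 0.22.

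The 2 members of this group below 0 were GINS4 and the ORC subunit ORC6. GINS4 differed by -0.42, -0.63 and 0.42 in anti-EpCAM pairs 1 to 3 and by -0.69, 0.16 and -0.24 in untreated pairs 1 to 3, an estimate of -0.23 ± 0.13 (adjusted p = 0.437 in limma). Its pairs went both ways within each treatment, and its 3 other probe sets had mean differences of 0.06, -0.24 and -0.25. The other subunits of its complex had estimates of 0.06 ± 0.05 for GINS1, 0.12 ± 0.06 for GINS2 and 0.14 ± 0.06 for GINS3. ORC6 differed by -0.054, 0.10 and -0.16 in the anti-EpCAM pairs and by -0.15, -0.019 and -0.092 in the untreated pairs (-0.06 ± 0.05, adjusted p = 0.620). The rest of the group were CDC45 at 0.16 ± 0.07 and the kinase subunits CDC7 at 0.08 ± 0.05 and DBF4 at 0.08 ± 0.06, which fire the licensed origin.

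**Figure D2:**
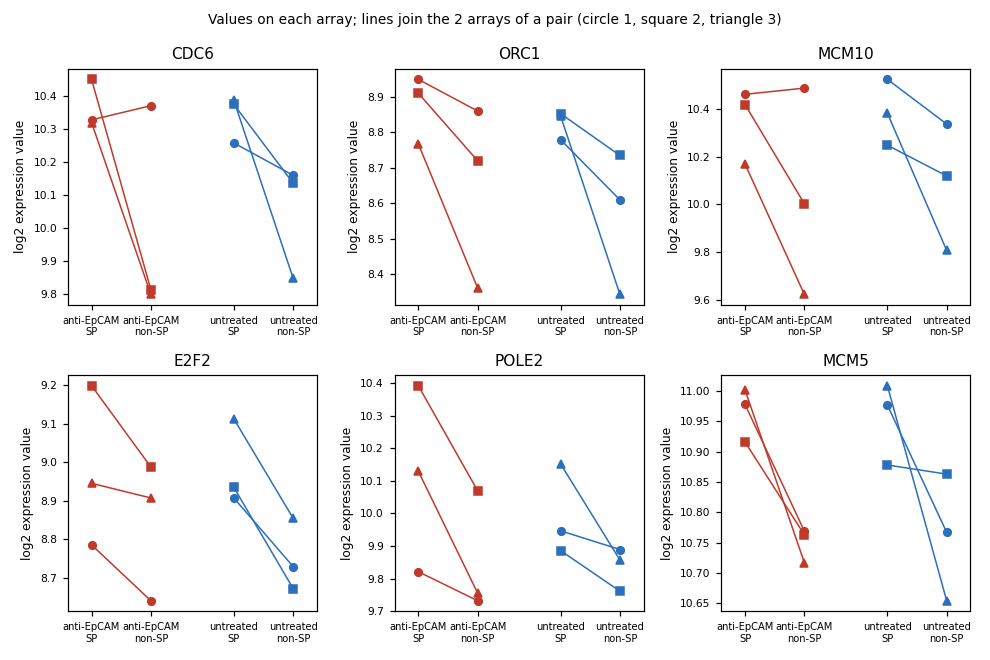
Log2 expression value on each of the 12 arrays for CDC6, ORC1, MCM10, E2F2, POLE2 and MCM5, the 6 genes with the smallest p; each line joins the SP array (left) and the non-SP array (right) of a pair, red for anti-EpCAM and blue for untreated, and vertical axes do not start at 0. Lines fall to the right except in anti-EpCAM pair 1 for CDC6 (-0.043) and MCM10 (-0.026).

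The start regions of these genes were searched for letters that E2F factors are known to bind. Of the 49 genes, 42 matched a RefSeq promoter window (GRCh38.p14, 250 bases before to 50 bases after the transcript start). Both strands were searched for TTTGGCGC, TTTCCCGC, TTTGCCGC and TTTCGCGC, which can overlap one another. Of the 42 genes, 21 held a match in at least 1 of their windows. Counted by window, 22 of their 54 windows (40.7%) held one, against 3.31% of 35116 windows of all genes. The CCAAT box letters were in 53.7% of the 54 windows, against 34.6% of all windows, and TTTGAA, a core found in many mitotic promoters, was in 3.70%, against 15.2%. In the arrays the medians of both sets were close: the median estimate was 0.12 in the 21 with a match, 20 of them above 0, and 0.11 in the 21 without, 19 of them above 0. Windows of 5 genes are printed to show repeated matches, single matches and none, with the matched letters in capitals, each in its gene's own direction. They are CDC6 (chr17:40287629-40287928, plus strand), MCM6 (chr2:135876394-135876693, minus strand), POLE2 (chr14:49688165-49688464, minus strand), E2F2 (chr1:23531184-23531483, minus strand) and MCM10 (chr10:13161308-13161607, plus strand).
CDC6: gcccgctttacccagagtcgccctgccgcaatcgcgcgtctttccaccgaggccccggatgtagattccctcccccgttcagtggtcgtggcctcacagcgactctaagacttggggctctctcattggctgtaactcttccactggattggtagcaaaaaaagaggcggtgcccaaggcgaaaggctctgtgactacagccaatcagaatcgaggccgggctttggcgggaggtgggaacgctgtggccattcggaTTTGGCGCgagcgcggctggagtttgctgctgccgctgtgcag
MCM6: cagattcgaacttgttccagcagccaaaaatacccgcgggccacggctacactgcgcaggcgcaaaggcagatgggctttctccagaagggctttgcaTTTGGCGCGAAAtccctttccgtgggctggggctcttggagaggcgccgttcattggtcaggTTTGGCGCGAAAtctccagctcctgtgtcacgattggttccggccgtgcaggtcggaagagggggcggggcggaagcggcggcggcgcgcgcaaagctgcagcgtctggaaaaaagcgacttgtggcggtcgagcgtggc
POLE2: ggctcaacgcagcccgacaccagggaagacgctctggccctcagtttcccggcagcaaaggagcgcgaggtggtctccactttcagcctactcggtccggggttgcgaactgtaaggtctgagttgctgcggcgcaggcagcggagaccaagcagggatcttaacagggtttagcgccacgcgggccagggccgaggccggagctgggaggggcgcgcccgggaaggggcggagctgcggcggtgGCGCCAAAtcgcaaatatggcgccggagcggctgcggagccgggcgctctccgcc
E2F2: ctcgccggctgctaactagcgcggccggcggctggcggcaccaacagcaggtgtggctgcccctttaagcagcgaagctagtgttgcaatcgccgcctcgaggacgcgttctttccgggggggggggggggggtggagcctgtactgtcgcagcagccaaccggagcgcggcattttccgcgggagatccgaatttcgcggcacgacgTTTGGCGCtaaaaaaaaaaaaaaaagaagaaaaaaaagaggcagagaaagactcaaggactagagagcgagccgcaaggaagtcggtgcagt
MCM10: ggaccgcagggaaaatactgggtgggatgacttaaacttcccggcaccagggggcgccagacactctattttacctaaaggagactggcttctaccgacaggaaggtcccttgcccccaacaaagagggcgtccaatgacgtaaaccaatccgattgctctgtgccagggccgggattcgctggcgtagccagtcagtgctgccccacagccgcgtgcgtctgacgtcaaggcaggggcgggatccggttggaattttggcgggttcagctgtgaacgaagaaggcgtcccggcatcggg
MCM6 holds 4 matches that overlap in 2 blocks, CDC6, POLE2 and E2F2 hold 1 each, and MCM10 holds 0. A match is a string of letters, and a missing match says only that these letters are not in this window.

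Of the 18 polymerase, clamp and fork genes, 17 had an estimate above 0, with a median of 0.099, 5 had an unadjusted p under 0.05 and 2 were higher in all 6 pairs. POLE2, the accessory subunit of polymerase epsilon, had 9.82, 10.39 and 10.13 in anti-EpCAM SP cells and 9.73, 10.07 and 9.76 in anti-EpCAM non-SP cells. In untreated cells it had 9.95, 9.89 and 10.15 in SP and 9.89, 9.76 and 9.86 in non-SP. The ranges of SP and non-SP overlapped because the replicates differed in level, while each SP array was above its partner. The estimate was 0.21 ± 0.06 (adjusted p = 0.107 in limma).

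PRIM2, the large subunit of the primase that makes the RNA primers, differed by -0.077, 0.61 and 0.15 in the anti-EpCAM pairs and by 0.26, 0.14 and 0.55 in the untreated pairs (0.27 ± 0.09, adjusted p = 0.154 in limma). POLA2, a subunit of polymerase alpha, differed by 0.072, -0.027 and 0.27 in the anti-EpCAM pairs and by 0.29, -0.017 and 0.41 in the untreated pairs (0.17 ± 0.07, adjusted p = 0.261), while its other probe sets had means of 0.062 and -0.14. PRIM2 was carried by 2 large differences, and POLA2 was near 0 in the second pair of both treatments. The other subunits of this complex, PRIM1 and POLA1, had 0.13 ± 0.08 and 0.11 ± 0.05. POLD3, an accessory subunit of polymerase delta, had 0.14 ± 0.06, whereas the catalytic subunits POLD1 and POLE had 0.02 ± 0.06 and 0.03 ± 0.06.

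The sliding clamp PCNA had 0.02 ± 0.06, with differences of -0.19, 0.071 and 0.14 in the anti-EpCAM pairs and 0.018, 0.082 and -0.018 in the untreated pairs. Its loader subunits had 0.15 ± 0.06 for RFC5, 0.12 ± 0.07 for RFC3, 0.11 ± 0.08 for RFC4 and 0.09 ± 0.17 for RFC2. Other probe sets of RFC5 had means of 0.26 and -0.17. RFC2 is given in full because its pairs were the most widely spread of the 49: -0.85, -0.0075 and 0.96 in the anti-EpCAM pairs and 0.15, 0.032 and 0.26 in the untreated pairs. It was far below 0 in anti-EpCAM pair 1 and far above 0 in anti-EpCAM pair 3. Its estimate was -0.14 when anti-EpCAM pair 3 was left out. Its other probe set did the same, with -0.88, 0.03 and 1.08 in the anti-EpCAM pairs. Anti-EpCAM pairs 1 and 3 are those with actin ratio differences of 1.86 and -2.09, and second probe sets of RFC3 (-1.02 and 1.23 in these pairs) and TK1 (-1.44 and 1.43) were also low in pair 1 and high in pair 3. That of RFC3 also had 1.11 in anti-EpCAM pair 2 and 0.44, 0.37 and 1.01 in untreated pairs 1 to 3. That of TK1 had -0.73 in anti-EpCAM pair 2 and 0.49, -0.0014 and -0.26 in the untreated pairs. Further probe sets of TYMS (-1.45 and 1.43), CCNE2 (-1.03 and 1.11) and RRM1 (-0.78 and 0.83) were low in anti-EpCAM pair 1 and high in pair 3. So were those of RFC5 (-0.67 and 1.11) and FEN1 (-0.52 and 0.66), and PRIM1 (-0.21 and 0.53) on its probe set of highest mean. Signs were opposite in LIG1 (0.26 and -0.15) and in other probe sets of ORC2 (0.20 and -0.23) and POLD3 (0.15 and -0.23), among others.

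**Figure D3:**
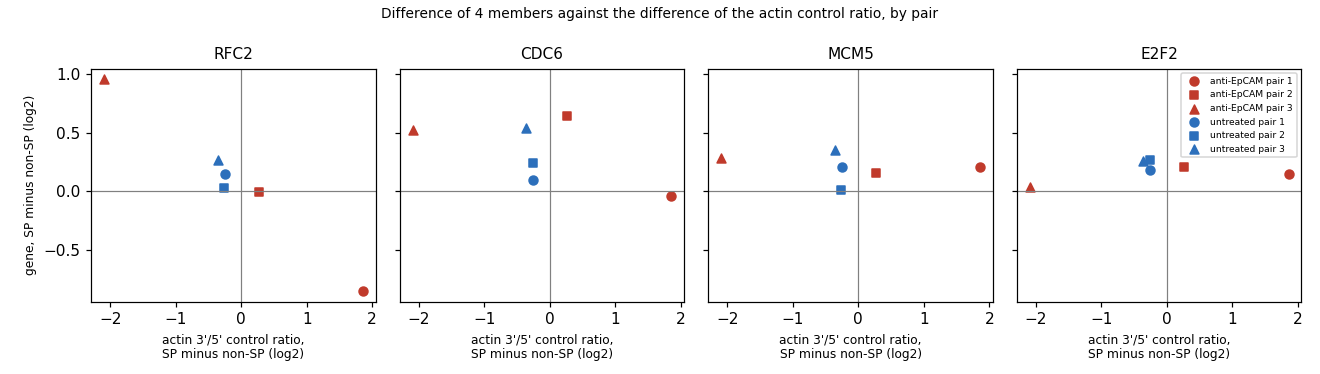
SP minus non-SP difference (log2, vertical axis) of RFC2, CDC6, MCM5 and E2F2 against the SP minus non-SP difference of the actin 3'/5' ratio (log2, horizontal axis); each point is a pair. RFC2 runs from 0.96 at the lowest ratio difference (-2.09) to -0.85 at the highest (1.86). CDC6 has 0.52 at the lowest and -0.043 at the highest, while MCM5 and E2F2 stay above 0 throughout.

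With the actin ratio as a covariate, an alternative added after these values were seen, 45 of 49 members were above 0, 21 had an unadjusted p under 0.05, against 18.6% of all genes, and the smallest adjusted p was 0.0659. With the GAPDH ratio as a covariate, 45 were above 0 and 23 had an unadjusted p under 0.05, against 17.9% of all genes. The remaining fork genes had small estimates on their probe sets of highest mean. The single-strand binding subunits had 0.06 ± 0.05 for RPA1, 0.03 ± 0.07 for RPA2 and 0.0048 ± 0.05 for RPA3, and the flap nuclease FEN1 had 0.08 ± 0.05. Other probe sets had mean differences of 0.22 and 0.13 for RPA1 and 0.22 for FEN1 (pairs from -0.52 to 0.66). The ligase LIG1 was below 0, with 0.26, -0.29 and -0.15 in the anti-EpCAM pairs and 0.073, -0.068 and 0.0053 in the untreated pairs (-0.03 ± 0.07, adjusted p = 0.886 in limma), and its estimate was 0.029 without anti-EpCAM pair 2.

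On their probe sets of highest mean, all 4 nucleotide genes had estimates above 0, but small ones, with a median of 0.060. Of them, 0 had an unadjusted p under 0.05. TYMS, which makes thymidylate, differed by -0.0036, 0.11 and 0.27 in the anti-EpCAM pairs and by 0.11, 0.078 and 0.12 in the untreated pairs (0.12 ± 0.05, adjusted p = 0.333 in limma). RRM1, the large subunit of ribonucleotide reductase, differed by 0.16, 0.016 and 0.012 in the anti-EpCAM pairs and by -0.025, 0.054 and 0.14 in the untreated pairs (0.06 ± 0.05, adjusted p = 0.628). TYMS was above 0 in all pairs but anti-EpCAM pair 1, and RRM1 in all but untreated pair 1. The small subunit RRM2 had 0.04 ± 0.05 and the salvage kinase TK1 had 0.06 ± 0.06. Other probe sets had mean differences of 0.33 for RRM1 (pairs from -0.78 to 0.83) and 0.11 for RRM2. Those of TYMS had 0.051 (pairs from -1.45 to 1.43) and 0.016, so the sizes depended on the probe set. TK1 had a mean difference of -0.085 on its second probe set, so that the average of its probe sets was -0.012.

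The 4 chromatin genes had a median of 0.15, and all 4 estimates were above 0. CHAF1A, the large subunit of the histone chaperone CAF-1, differed by 0.13, 0.25 and 0.17 in the anti-EpCAM pairs and by 0.0, 0.12 and 0.34 in the untreated pairs (0.17 ± 0.06, adjusted p = 0.185 in limma). Its other probe sets above the filter did not share a direction: one had a mean difference of 0.25, and the other had -0.22, with 4 of 6 pairs below 0. CHAF1B, the middle subunit of the same chaperone, differed by 0.084, 0.24 and 0.21 in the anti-EpCAM pairs and by 0.020, 0.10 and 0.28 in the untreated pairs (0.16 ± 0.06, adjusted p = 0.201). On these probe sets CHAF1A and CHAF1B followed the same order of pairs within the untreated cultures, lowest in pair 1 and highest in pair 3. The other CHAF1A probe sets above the filter did not. In untreated pairs 1 to 3 one had 0.52, 0.18 and 0.20 and the other had -0.75, -0.26 and -0.29. The histone mRNA binding protein SLBP had 0.14 ± 0.08, and UHRF1, which reads hemimethylated DNA behind the fork, had 0.10 ± 0.05.

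The G1/S regulators went in different directions. E2F2, an activating E2F factor, had 8.79, 9.20 and 8.95 in anti-EpCAM SP cells and 8.64, 8.99 and 8.91 in anti-EpCAM non-SP cells. In untreated cells it had 8.91, 8.93 and 9.11 in SP and 8.73, 8.67 and 8.85 in non-SP, so that the untreated SP arrays all lay above the untreated non-SP arrays. The estimate was 0.18 ± 0.05 (adjusted p = 0.105 in limma), with 6 of 6 pairs above 0. Its other probe sets had mean differences of 0.12 and 0.059, and with the mean of its probe sets the estimate was 0.12 ± 0.06 (unadjusted p = 0.0683 in limma). E2F1, another activating factor, had 0.0044 ± 0.06, an estimate that turned below 0 in some alternatives.

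CCNE2, a cyclin E gene, differed by -0.026, 0.58 and 0.53 in the anti-EpCAM pairs and by -0.12, 0.22 and 0.60 in the untreated pairs (0.30 ± 0.10, adjusted p = 0.174 in limma). The other cyclin E gene, CCNE1, differed by 0.0025, -0.062 and -0.13 in the anti-EpCAM pairs and by -0.18, -0.13 and 0.071 in the untreated pairs (-0.07 ± 0.06, adjusted p = 0.569). On these probe sets CCNE2 was below 0 in the first pair of both treatments and above 0 in the other 4 pairs. CCNE1 was below 0 in 4 of 6 pairs. The second CCNE2 probe set, with a mean difference of 0.22, had another order. It differed by -1.03, 0.66 and 1.11 in the anti-EpCAM pairs and by 0.34, -0.48 and 0.69 in the untreated pairs. The other CCNE1 probe set, with a mean level of 5.18, lay below the filter and had a mean difference of 0.10. Averaging it in gave 0.015, so the change of sign came from a dim probe set.

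Neighbouring pathway lists were examined in the same fit. Of 39 tested genes of other replication and S phase functions, 28 had estimates above 0, with a median of 0.090, 12 higher and 2 lower ones had an unadjusted p under 0.05, and 0 passed. MCM9, a helicase of DNA repair, had 0.21 ± 0.06 (adjusted p = 0.0855 in limma), DTL, which directs the destruction of CDT1, had 0.28 ± 0.08 (adjusted p = 0.105), and ORC5 had 0.19 ± 0.06. SAMHD1, which breaks down nucleotides, had -0.14 ± 0.06, and the polymerase delta subunit POLD4 had -0.24 ± 0.09. Of 24 G1/S control genes, 14 were above 0, with a median of 0.051 and 0 passing, 2 higher and 1 lower having an unadjusted p under 0.05. The cyclin D gene CCND1 had 0.08 ± 0.06 (adjusted p = 0.574) and the inhibitor CDKN1A had -0.14 ± 0.07 (adjusted p = 0.377).

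Of 30 G2/M and mitosis genes, 19 were above 0, but the median was 0.014, and 1 passed. This was UBE2C, the ubiquitin-conjugating enzyme of the anaphase-promoting complex, which fell in SP cells by 0.34 ± 0.07 (adjusted p = 0.0420 in limma) and was lower in all 6 pairs. The proliferation marker MKI67 had 0.00064 ± 0.05. The difference between the replication lists and the mitotic list was not tested. The pump gene ABCG2, whose product exports Hoechst, rose in SP cells by 0.49 ± 0.06 (adjusted p = 0.00375). EPCAM, which encodes the antigen, rose by 0.26 ± 0.06 (adjusted p = 0.0435). The calls of UBE2C and EPCAM held when anti-EpCAM pair 1 was left out and were lost when any of the other 5 pairs was, with adjusted p of 0.0562 to 0.178 for UBE2C and 0.0709 to 0.166 for EPCAM, while ABCG2 passed each time. These calls of UBE2C and EPCAM lay near the threshold. Without the filter on dim probe sets, adjusted p was 0.0526 for UBE2C and 0.0639 for EPCAM, and with the GAPDH covariate it was 0.0685 for UBE2C and 0.0583 for EPCAM. UBE2C also missed with the mean of probe sets (0.0527) and with the actin covariate (0.0509), and both missed without anti-EpCAM pairs 1 and 3. With the trended prior, adjusted p was 0.126 for UBE2C, ABCG2 and EPCAM, and none of them passed with the 12 arrays treated as independent.

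**Figure D4:**
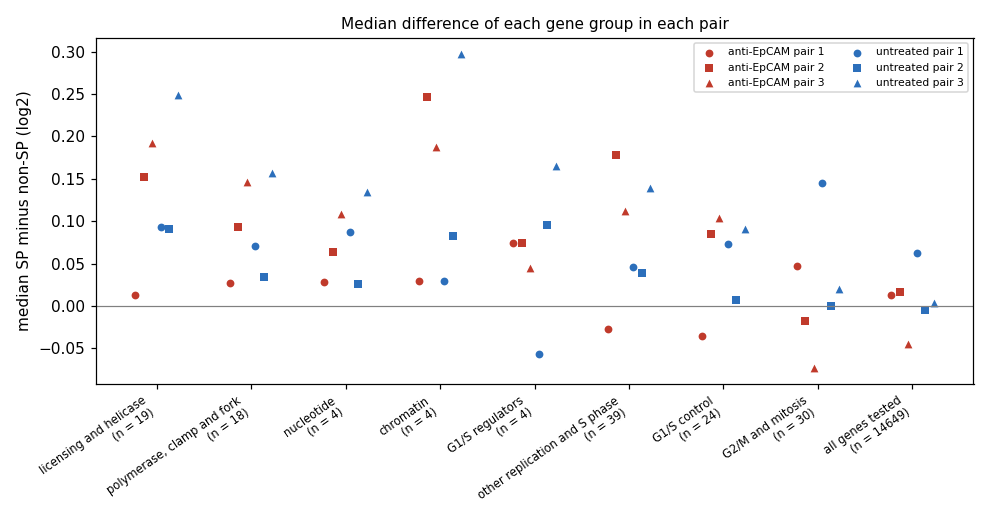
Median SP minus non-SP difference (log2, vertical axis) of each gene list in each of the 6 pairs, red for anti-EpCAM and blue for untreated. The licensing genes lie between 0.013 and 0.25 in every pair, the chromatin genes reach 0.30 in untreated pair 3, and the medians of all genes stay between -0.044 and 0.063.

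The next comparison asked whether the difference between SP and non-SP cells depended on the antibody. In the 3 anti-EpCAM pairs, 40 of 49 members were above 0, against 48.7% of all genes, with a median of 0.11, and 18 were higher in all 3 pairs, against 11.9%. In limma 0 members passed, where 36 genes (0.246%) did, and 8 had an unadjusted p under 0.05, all higher, against 4.23%. The largest of these was CDC6 at 0.37 ± 0.13, and the smallest adjusted p was 0.301, for POLE2 at 0.26 ± 0.08. That count of 8 was 16 when anti-EpCAM pair 1 was left out and 2 when either of the others was. Over all genes the share with an unadjusted p under 0.05 was 15.5%, 6.47% and 12.5% when anti-EpCAM pairs 1, 2 and 3 were left out, against 10.5% with all 3. The 36 genes became 5, 0 and 9 when anti-EpCAM pairs 1, 2 and 3 were left out.

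In the 3 untreated pairs, 46 of 49 were above 0, against 57.3% of all genes, with a median of 0.11, and 23 were higher in all 3 pairs, against 22.1%. In limma 0 members passed, where 14 genes (0.0956%) did, and 9 had an unadjusted p under 0.05, all higher, against 5.03%. The smallest adjusted p was 0.339, for E2F2 at 0.23 ± 0.07, and the largest estimate was that of PRIM2 at 0.32 ± 0.12. Without untreated pair 3 the count of 9 was 0, and 4.69% of all genes had an unadjusted p under 0.05, against 8.88% with all 3 pairs. The 14 genes became 0 when anti-EpCAM pair 2, untreated pair 2 or untreated pair 3 was left out and 4 when untreated pair 1 was.

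The difference of these effects, anti-EpCAM minus untreated, ran from -0.14 for POLE to 0.13 for CCNE2, with a median of -0.0046 and 22 of 49 above 0, against 38.5% of all genes. In limma 0 of all genes passed this test, 249 (1.70%) had an unadjusted p under 0.05, and 0 of them were members. With the trended prior 0 genes passed and 251 had an unadjusted p under 0.05. For CDC6 the difference of effects was 0.08 ± 0.18, so an antibody effect on the fraction difference of the size of that difference itself was not detectable with 3 pairs against 3.

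The last comparison set anti-EpCAM cells against untreated cells. Over the means of each pair, 28 of 49 members were above 0, against 79.5% of all genes, with a median of 0.019, against 0.091 over all genes. When all 12 arrays were quantile normalized, 13 were above 0, against 54.2% of all genes. Their median was then -0.045, against 0.012 over all genes, so the direction of the list depended on the scaling. In limma 0 genes passed, 57 (0.389%) had an unadjusted p under 0.05 and 0 of them were members. With the trended prior 0 passed and 19 had an unadjusted p under 0.05. That count was 501 (3.42%) with a block on replicate number and 1233 (8.42%) with anti-EpCAM replicate 1 left out. In both fits 0 genes passed and 0 members were among those counted. With anti-EpCAM replicate 2 left out, 17 members were above 0, against 53.2% of all genes. With anti-EpCAM replicate 3 left out, 39 members were, against 64.3% of all genes.

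The members with the smallest p were TK1, GINS4, RPA2 and CDT1. TK1 had pair means of 10.33, 10.80 and 10.47 in anti-EpCAM cultures and 10.05, 10.15 and 10.47 in untreated cultures, a difference of 0.31 ± 0.19. CDT1 had 9.60, 9.88 and 9.76 in anti-EpCAM cultures and 10.12, 10.00 and 9.72 in untreated cultures, a difference of -0.20 ± 0.17. The treatments overlapped in both genes, through the third untreated replicate. RPA2 had 10.58, 10.87 and 10.57 in anti-EpCAM cultures and 10.47, 10.39 and 10.61 in untreated cultures, a difference of 0.18 ± 0.16. GINS4 had 8.76, 8.48 and 8.38 in anti-EpCAM cultures and 8.81, 8.92 and 8.48 in untreated cultures, a difference of -0.20 ± 0.19. Adjusted p was 1.00 for all 4 in limma.

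Within SP cells 31 of 49 members were above 0 in anti-EpCAM against untreated cultures, against 75.3% of all genes, with 63 genes (0.430%) at an unadjusted p under 0.05 in limma, 0 genes passing and 0 members among the 63. Within non-SP cells 28 of 49 were above 0, against 80.0% of all genes, with 60 genes (0.410%) at an unadjusted p under 0.05, 0 passing and 0 members among the 60. With the trended prior 0 genes passed in either fraction, and 13 in SP and 33 in non-SP cells had an unadjusted p under 0.05. These counts were 337 and 731 with a block on replicate number and 1119 and 1246 without anti-EpCAM replicate 1, with 0 members among them. Quantile normalization brought the members above 0 to 16 in SP and 16 in non-SP cells, against 50.2% and 56.8% of all genes. No replication gene's antibody contrast passed in either fraction.

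**Figure D5:**
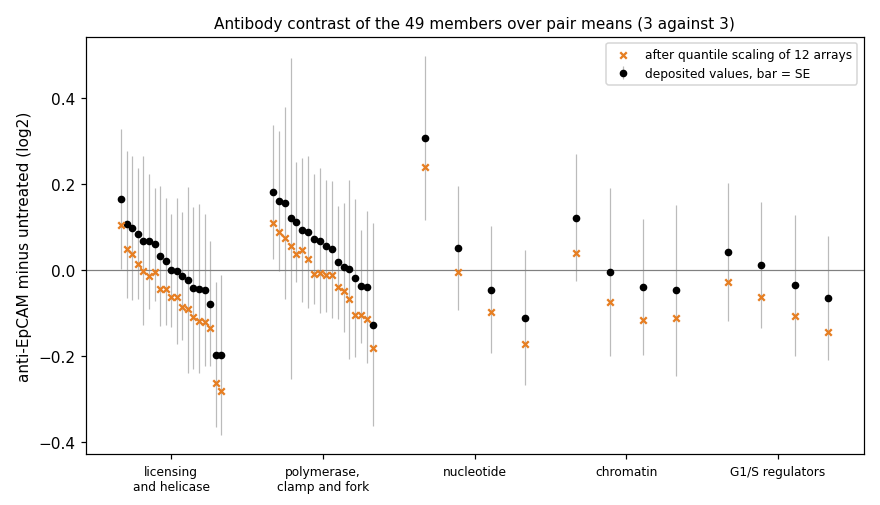
Anti-EpCAM minus untreated difference (log2, vertical axis) of the 49 genes over pair means, 3 against 3, ordered by size within each role; black points with SE bars are the deposited values and crosses the values after quantile normalization of all 12 arrays. Estimates run from -0.20 for GINS4 to 0.31 for TK1, and the crosses lie lower, with 13 of 49 above 0.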

How the data were processed

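RNA of 12 sorted A549 samples had been hybridised to Affymetrix arrays. The authors deposited log2 expression values per probe set, made with RMA per the submitters' processing notes; its version and which arrays were processed together are not given in the sources used here. They ran from 2.43 to 14.95, and the main results use them unchanged. Of 54675 probe sets, 62 controls were left out, 41092 had 1 symbol in the probe table, 1800 had several and 11721 had none. Probe sets with a mean over 12 arrays above the 40th percentile (5.39) were kept, and the probe set with the highest mean stood for each gene, which left 14649 of 19776 genes.

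Within-pair differences were tested with limma 3.58.1 in R 4.3.3, with a mean for each treatment, two-sided, and Benjamini-Hochberg adjustment over the 14649 genes at 0.05. Antibody contrasts used 3 values against 3. The pairing was checked before calls were compared: deviations from group means on paired SP and non-SP arrays had r of 0.84, 0.62 and 0.77 in anti-EpCAM and 0.87, 0.72 and 0.89 in untreated cultures. Anti-EpCAM and untreated arrays of the same number had r of 0.71, -0.18 and 0.64 in SP and 0.73, -0.11 and 0.60 in non-SP cells, and were not paired. Whether the 6 pairs are independent, as every SE and p assumes, was not tested. Fits were tested on simulated data.

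The 49 members, the lists and the tests were chosen with earlier results of these data known, so the direction of the list is no independent evidence. Named in full were, per role, the 3 members with the smallest p (2 in groups of 4) and those below 0, and the 4 of smallest p in the antibody contrast; PCNA, RFC2, MCM2, MCM3 and the other values were added after they were seen. Alternatives were no pairing, a block on replicate number, quantile normalization, no filter, the mean of a gene's probe sets, a trended prior, the GAPDH or actin ratio as a covariate (the latter added after seeing the data) and leaving out pairs. Of the 27 members with several probe sets, 8 had probe sets of opposite sign. Of the 26 with several probe sets above the filter, 7 did.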

Additional observations from a re-analysis of the deposited data

How the results depend on the processing

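The count of all genes that passed over 6 pairs (362) was 0 with no replicate block, 0 with the trended prior, 27 without anti-EpCAM replicates 1 and 3, and 72 to 430 when 1 pair was left out; members called were 0 to 2 when 1 pair was left out. In the anti-EpCAM pairs the count (36) was 0 with no replicate block, 14 without the filter, 13 with the mean of probe sets, 0 with the trended prior, 9 with the GAPDH covariate, 0 without replicates 1 and 3, and 0 to 32 when 1 pair was left out. In the untreated pairs the count (14) was 0 with no replicate block, 0 with the trended prior, 9 with the GAPDH covariate and 0 to 16 when 1 pair was left out. A replicate block on the number across treatments was run for the antibody contrasts only and gave 0 calls in each. Of 404 values of 26 named members, 2 newly passed (CDC6 and MCM10), 10 changed sign and the others kept both direction and call. Over all 49 members and the 6 pairs, 27 of 686 values changed sign, in 12 members. The other 5 of these 12 were E2F1 (-0.11 to 0.063), PCNA (-0.017 to 0.066), POLD1 (-0.083 to 0.078), POLE (-0.030 to 0.069) and RPA3 (-0.018 to 0.016). CCNE1 became 0.015 and TK1 -0.012 with the mean of probe sets, and MCM7 became -0.0022 with quantile normalization. Without anti-EpCAM replicates 1 and 3, ORC6 became 0.0044, TK1 -0.040 and MCM7 -0.024. With 1 pair left out, LIG1 ranged from -0.11 to 0.029, RPA2 from -0.044 to 0.087, MCM7 from -0.0092 to 0.054 and RFC2 from -0.14 to 0.31. The causes were not tested. Members lay above the background filter, the lowest (PRIM2) at the 41.9th percentile of the genes tested.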
